A study of Mus musculus with 2 samples.

Results

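Transcripts of 10 secretory genes of the exocrine pancreas, most of them for digestive enzymes, were followed through every barcode class of dispersed mouse islets. The genes were Ctrb1, Clps, Reg1, Pnliprp1, Cela3b, Cela2a, Cela1, Prss2, Cpa1 and Cpb1, which are 10 of the 31053 genes in the deposited count matrices. The members were chosen by their measured UMIs per class in these same libraries, where their transcripts had been seen in islet barcodes, and the division into genes with an even level over all classes and Cela1, which is high beside somatostatin, was read from the same counts. The levels by class that follow are therefore a description and carry no test. The working name of free RNA was set against these same counts, which can only describe it. Outside a few barcodes rich in these transcripts, the 9 genes other than Cela1 summed to a level whose counting interval held the library mean in 7 of 7 Npc1KO classes but in 3 of 7 WT classes, while Cela1 was high in somatostatin barcodes and Cpa1 in mesenchymal ones. Where the transcripts came from was not tested.

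The data were 2 libraries of single-cell RNA sequencing of islets, 1 from wild type (WT) mice and 1 from Npc1KO mice. Npc1 encodes a lysosomal protein that passes cholesterol out of the lysosome, and the knockout was carried on a C57BL/6J background with wild type littermates as controls. Each library was made from the pooled islets of 3 female mice aged 2 weeks, so genotype and library cannot be told apart, and no sample replicates either. The pancreas was digested with collagenase and the isolated islets with trypsin before they were loaded as live suspensions.

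Acinar cells make up most of the pancreas and surround the islets. They fill granules with enzyme precursors that are released into the duct and cut protein, fat and starch in the gut. Their enzyme messages are among the most abundant of any tissue, and acinar cells break easily when the pancreas is digested. Elastases, trypsinogens and chymotrypsinogens are serine proteases, carboxypeptidases remove residues from the end of a protein, and lipases work with a small cofactor called colipase. The transcription factors Ptf1a and Rbpjl work together on the promoters of these genes in acinar cells.

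The serine proteases on the list were Ctrb1 (chymotrypsinogen B, chr8:111686519-111691010, minus strand), Prss2 (a trypsinogen, chr6:41521787-41525079, plus strand), Cela1 (chr15:100674421-100687921, minus strand), Cela2a (chr4:141814962-141826160, minus strand) and Cela3b (chr4:137420999-137430540, minus strand), the last 3 being elastase-like. The carboxypeptidases were Cpa1 (chr6:30639218-30645363, plus strand) and Cpb1 (chr3:20248264-20275733, minus strand). Clps encodes colipase (chr17:28558149-28560766, minus strand), Pnliprp1 a protein related to pancreatic lipase (chr19:58728887-58744169, plus strand) and Reg1 a secreted lectin-like protein of acinar cells (chr6:78422711-78428667, plus strand). The listed genes are called enzyme genes here as a group name, although colipase is a cofactor and Reg1 a lectin-like protein. Positions are on GRCm38, the mm10 build of the labels, from the GENCODE annotation. Cela2a overlapped Ctrc on its own strand and Casp9 on the other, and Ctrb1 and Clps each held an annotated microRNA. The closest other protein-coding transcript was Try4 for Prss2, with 91.4% identity in the aligned stretch, and Cela3a for Cela3b, with 90.1%. No UMI was counted for Cela3a in the kept barcodes of either library. Reads of these pairs can be split or lost in counting, so the levels of Prss2 and Cela3b are uncertain in that respect.

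The promoter windows of 3 genes are shown because their transcripts behaved differently: Ctrb1 was the most frequent of the genes other than Cela1, Cela1 followed somatostatin, and Cpa1 was high in mesenchymal barcodes. Each window runs from 250 bases before to 50 bases after the RefSeq start on GRCm38.p6, at chr8:111690961-111691260 on the minus strand for Ctrb1, chr15:100687871-100688170 on the minus strand for Cela1 and chr6:30638968-30639267 on the plus strand for Cpa1. They are written 5′ to 3′ in the direction of the gene, and capitals mark CANNTG, the letters of the E-box.
Ctrb1: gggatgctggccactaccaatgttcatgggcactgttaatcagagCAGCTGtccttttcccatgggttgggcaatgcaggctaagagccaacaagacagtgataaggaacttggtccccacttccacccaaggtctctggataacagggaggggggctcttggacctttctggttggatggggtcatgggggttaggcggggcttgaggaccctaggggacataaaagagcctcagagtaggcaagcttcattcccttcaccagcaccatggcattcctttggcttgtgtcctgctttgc
Cela1: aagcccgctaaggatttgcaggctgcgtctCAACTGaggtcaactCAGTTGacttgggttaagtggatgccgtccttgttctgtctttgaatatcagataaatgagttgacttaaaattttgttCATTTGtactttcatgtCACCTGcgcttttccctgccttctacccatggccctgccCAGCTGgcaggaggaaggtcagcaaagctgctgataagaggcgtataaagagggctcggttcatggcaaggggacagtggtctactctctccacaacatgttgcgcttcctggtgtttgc
Cpa1: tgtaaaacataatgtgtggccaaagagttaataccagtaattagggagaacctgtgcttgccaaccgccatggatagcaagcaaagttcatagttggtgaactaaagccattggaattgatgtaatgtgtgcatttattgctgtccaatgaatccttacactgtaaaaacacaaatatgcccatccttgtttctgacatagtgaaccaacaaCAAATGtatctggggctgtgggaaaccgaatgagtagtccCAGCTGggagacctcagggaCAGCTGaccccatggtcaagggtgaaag
The E-box letters, which read the same on both strands, occurred 1 time in the Ctrb1 window, 5 times in that of Cela1 and 3 times in that of Cpa1. They were found in 9 of the 9 windows available for the listed genes, against 72.3% of all 32817 promoter windows of 300 bases. TATAAA on either strand was found in 4 of 9, Cela1 among them, against 13.6% of all windows. TGGGAA on either strand, letters that can lie inside longer motifs, was found in 6 of 9, including Ctrb1 and Cpa1 but not Cela1, against 25.6%. These matches describe letters in a window and are not evidence of binding.

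The WT matrix held 8569 barcodes with 114324626 UMIs (unique molecular identifiers, each standing for a captured RNA molecule), and the Npc1KO matrix 7646 barcodes with 127122035 UMIs. The kept barcodes had over 1000 genes detected, a total below 50000 UMIs, a mitochondrial share below 10% and a haemoglobin share of no more than 0.1%, which left 4628 WT barcodes with a median of 18905 UMIs and 4269 Npc1KO barcodes with a median of 21381. The targeted gene was counted at 8.40 UMIs per 1000000 UMIs (CPM, from 790 UMIs) in the WT library and at 4.14 (391 UMIs) in the Npc1KO library. The libraries shared 12 barcode sequences, and 208 kept WT barcodes were classed as B or T cells against 1 in Npc1KO. The 10 genes took 0.0251% of the kept UMIs in WT and 0.0792% in Npc1KO.

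Each barcode was classed by its leading hormone where that hormone took at least 10% of its UMIs, and otherwise by stromal markers. The WT classes held 1833 insulin, 1048 glucagon, 189 somatostatin, 411 PP (Ppy and Pyy), 443 endothelial, 236 stellate and 66 mesenchymal barcodes. In Npc1KO the same classes held 1826, 857, 141, 442, 449, 256 and 70 barcodes. In both libraries all 8 markers of each stromal class were highest in their own class. This is no separate check, because the same lists assigned the classes. Hhex, a transcription factor of somatostatin-producing delta cells, was at 5.69 UMIs per barcode in the WT somatostatin class and 5.92 in the Npc1KO one, and Sst itself was at 2531 UMIs per barcode there in WT. The PP class also held Sst, at 619 UMIs per barcode in WT.

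Most enzyme transcripts of the kept barcodes sat in very few of them. With Cela1 set aside, the other 9 genes gave 20384 UMIs in WT and 68412 in Npc1KO. In each library 7 kept barcodes, called enzyme-rich here, had at least 100 UMIs of the 9 genes and together held 84.9% of these UMIs in WT and 92.8% in Npc1KO. The limit of 100 was set after the counts were seen. Barcodes outside the filter reached it too. They included 13 WT and 6 Npc1KO barcodes with 1000 genes or fewer, and 1 Npc1KO barcode with 50000 UMIs or more. All WT barcodes with 1000 genes or fewer held 11972 UMIs of the 9 genes, and 2958 without those 13, so the filter bears on the totals over kept barcodes. In WT the lowest enzyme-rich barcode had 109 such UMIs and the highest of the others 35, and in Npc1KO the values were 1756 and 31.

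The enzyme-rich barcodes differed among themselves. The richest in WT had 7444 UMIs of the 9 genes, and the 10 genes took 58.5% of its 13334 UMIs. The second had 6930 such UMIs beside 21.5% insulin UMIs and was classed with the insulin barcodes. The others had 1429, 905, 289, 204 and 109. In Npc1KO the 7 barcodes had 15492, 13344, 13084, 6933, 6759, 6139 and 1756, and the 10 genes took between 31.5% and 61.4% of their UMIs. None of the 14 was among the 317 WT and 261 Npc1KO barcodes with the highest doublet scores. These scores compare each barcode with simulated pairs of observed barcodes, few of which would include an enzyme-rich one. They therefore cannot decide whether an enzyme-rich barcode was a doublet.

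The acinar factor Ptf1a was counted 25 times in 2 of the WT enzyme-rich barcodes and 5 times in 3 of the Npc1KO ones. It was counted in 0 of 4621 other WT barcodes, which allows up to 0.0649% of barcodes with a UMI of it, and in 0 of 4262 other Npc1KO barcodes, which allows up to 0.0704%. These limits are on barcodes with a UMI and not on barcodes that express the gene, since 5 of 7 WT and 4 of 7 Npc1KO enzyme-rich barcodes also had none. Rbpjl gave 20 and 32 UMIs in the enzyme-rich barcodes of WT and Npc1KO, and 4 and 8 in all other kept barcodes. The 25 WT Ptf1a UMIs lay in the barcodes with only 204 and 109 enzyme UMIs. The first of these held 92 UMIs of Reg1, 57 of Clps, 52 of Pnliprp1 and 39 of Cela1 but 3 of Ctrb1 and 0 of Cela3b, Cela2a, Prss2, Cpa1 and Cpb1. The factors Bhlha15 and Nr5a2 lay mostly outside the enzyme-rich barcodes, with 903 and 234 UMIs in the other WT barcodes. Outside the enzyme-rich barcodes Bhlha15 was highest in the insulin class, at 0.377 UMIs per barcode in WT and 0.376 in Npc1KO. Nr5a2 was highest in the endothelial class, at 0.335 and 0.384.

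The enzyme-rich barcodes moved the library means and the means of the few classes that held them. In WT 2 were classed as insulin and 1 as endothelial, and 4 had no class. In Npc1KO 1 was classed as endothelial and 6 had no class. Over all kept barcodes the 9 genes summed to 4.40 UMIs per barcode in WT (95% interval 4.34 to 4.47, exact Poisson) and 16.0 in Npc1KO (15.9 to 16.1). These intervals, like all that follow, cover counting error alone. Without the 7 enzyme-rich barcodes the levels were 0.665 (0.642 to 0.689) and 1.15 (1.12 to 1.18). Evenness was measured as the highest class mean over the lowest. With all kept barcodes 0 of 10 genes were under 2 in either library, where 15.2% of the 9567 genes with at least 500 UMIs in each library were in WT and 9.16% in Npc1KO. All 10 genes met this minimum through the kept barcodes as a whole, and 7 of 10 would not have met it in WT without the enzyme-rich ones. Without those barcodes the values were therefore set against the 12792 genes with at least 100 UMIs in each library outside them, a limit chosen after the data were seen. In WT 3 of 10 were then under 2 (12.0% of all genes) and in Npc1KO 6 of 10 (7.43%). The median over the 10 was 3.72 in WT and 1.73 in Npc1KO, beside 4.31 and 4.85 over all genes, many of which had more UMIs than the members. The values below leave the enzyme-rich barcodes out unless stated otherwise.

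The 9 genes summed stayed within counting error of the library mean in every Npc1KO class but not in every WT class. In Npc1KO the sum was 1.11 UMIs per barcode in the insulin class, 1.16 in glucagon, 1.27 in somatostatin, 1.19 in PP, 1.10 in endothelial, 1.07 in stellate and 1.40 in mesenchymal barcodes. The intervals of 7 of 7 classes held the library mean. Against the other classes combined, the Npc1KO mesenchymal class was at 1.24 times (1.002 to 1.51). In WT the sum was 0.611 in insulin, 0.741 in glucagon, 0.524 in somatostatin, 0.691 in PP, 0.604 in endothelial and 0.636 in stellate barcodes, and 1.52 in mesenchymal barcodes. Here 3 of 7 intervals held the library mean of 0.665. The variance of the sum over barcodes was 1.92 times its mean in WT and 2.16 times in Npc1KO, so Poisson intervals are too narrow. The WT glucagon class included a barcode with 35 UMIs of the 9 genes. The insulin class (0.575 to 0.647) and the somatostatin class lay below it, the glucagon class (0.690 to 0.795) and the mesenchymal class above it, and the insulin and glucagon intervals did not overlap. With Cpa1 left out, a choice made after its values were seen, the WT mesenchymal sum of the remaining 8 genes was 0.833 (0.628 to 1.08) beside a library mean of 0.632, which 4 of 7 intervals then held, those of insulin, glucagon and somatostatin still lying outside.

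**Figure D1:**
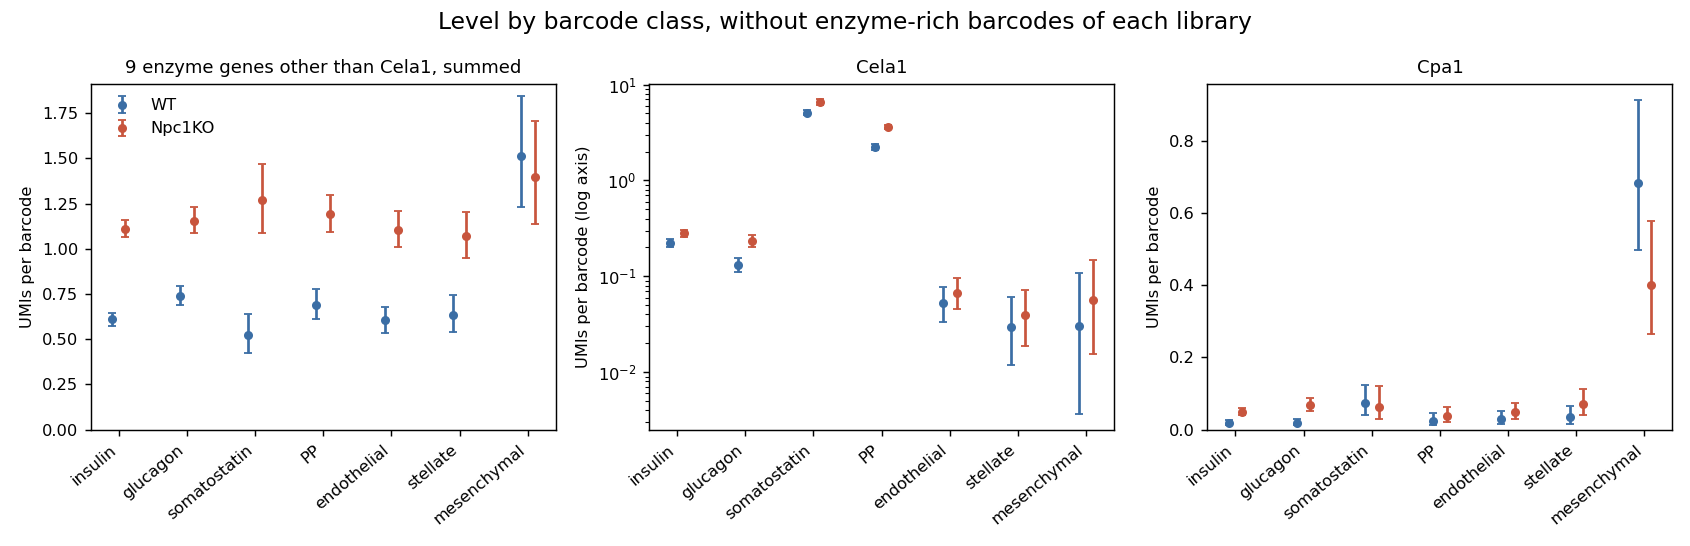
UMIs per barcode by barcode class in the WT and Npc1KO libraries (1 each), for 9 enzyme genes summed, Cela1 (log axis) and Cpa1, without the enzyme-rich barcodes; bars are exact Poisson 95% intervals for counting error. The sum lies between 0.524 and 0.741 in 6 WT classes and between 1.07 and 1.40 in the Npc1KO classes, Cela1 peaks in the somatostatin class, and Cpa1 in the mesenchymal class.

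Ctrb1 was the most frequent of the 9, with 0.229 UMIs per barcode in WT (0.216 to 0.243) and 0.333 in Npc1KO (0.316 to 0.351). Its class means ran from 0.159 to 0.364 in WT and from 0.319 to 0.414 in Npc1KO, and the intervals of 5 and 7 of the 7 classes held the library mean. The trypsinogen Prss2 was at 0.0437 and 0.0852, the elastase gene Cela2a at 0.0535 and 0.121 and Cela3b at 0.0424 and 0.0927, each in the order WT and Npc1KO. Cela2a was the evenest member over both libraries, with highest-over-lowest ratios of 1.72 and 1.25 and rank 179 of 12792 genes. Cela3b rested on 1 UMI in WT and 2 in Npc1KO mesenchymal barcodes, which set its lowest class.

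The lipase-related gene Pnliprp1 was at 0.108 UMIs per barcode in WT and 0.164 in Npc1KO, and 7 and 6 of the 7 class intervals held these means. Clps was at 0.0348 and 0.0772. The carboxypeptidase Cpb1 was at 0.0589 and 0.0892, and Reg1 at 0.0612 and 0.127. The intervals of Reg1 held the library mean in 7 of 7 classes of both libraries. In WT the somatostatin class lay below the mean for Ctrb1, Prss2 and Cpb1, the last resting on 3 UMIs and Prss2 on 2. In Npc1KO the same class held the mean for all 3.

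**Figure D2:**
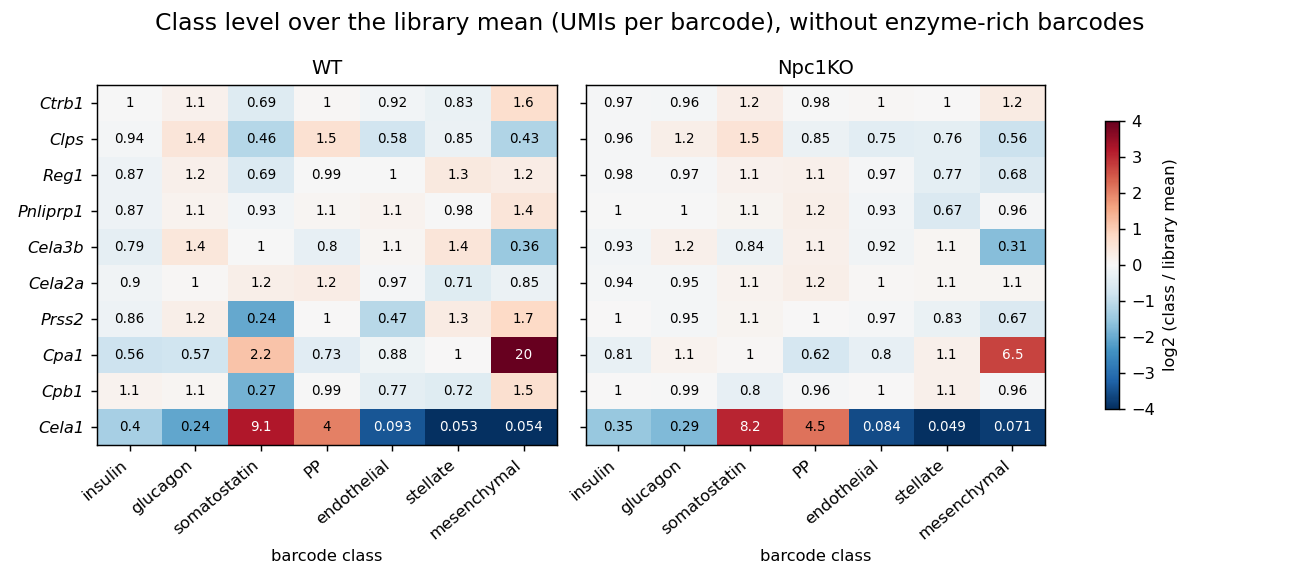
Level of each gene in a class over its mean in the library (UMIs per barcode, printed in each cell; colour is its log2), without the enzyme-rich barcodes. The cells of the genes other than Cela1 and Cpa1 run from 0.242 to 1.73 in WT and from 0.308 to 1.47 in Npc1KO, Cela1 is at 9.12 and 8.20 times its mean in the somatostatin class of WT and Npc1KO, and Cpa1 at 20.5 and 6.48 times in the mesenchymal class.

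The mixture of transcripts was led by Ctrb1 in nearly every class. Ctrb1 made up 34.5% of the UMIs of the 9 genes in WT and 29.0% in Npc1KO, and it was the largest share in 6 of 7 WT classes and 7 of 7 Npc1KO classes. The exception was the WT mesenchymal class, where Cpa1 took 45.0% and Ctrb1 24.0%. Pnliprp1 came next in the libraries, with 16.3% and 14.2%. The shares in barcodes with 1000 genes or fewer were close to those in the kept barcodes: the sum of absolute differences divided by 2 came to 4.53 percentage points in WT and 2.35 in Npc1KO. Against the pooled enzyme-rich barcodes of the same library the distance was larger, 9.76 and 12.6 points. Between WT and Npc1KO it was 8.64 points outside the enzyme-rich barcodes and 10.0 points for the enzyme-rich ones. Clps was 5.24% of the 9 genes in other WT barcodes and 10.3% in the enzyme-rich ones, with 6.71% and 14.7% in Npc1KO. Cela2a went the other way, from 8.04% to 4.86% in WT and from 10.5% to 5.44% in Npc1KO. The enzyme-rich shares are pooled over few barcodes that differed among themselves. In WT the richest held 400 Clps and 562 Cela2a UMIs among its 7444 UMIs of the 9 genes, and the second 813 and 180 among its 6930. The Npc1KO barcodes with 6933 and 6759 such UMIs held 2068 and 409 of Clps.

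Pooled over classes, the level per barcode varied less than 2-fold over a wide range of depth. Over all deposited barcodes other than the enzyme-rich ones, the 9 genes gave 1.12 UMIs per barcode in WT barcodes of 500 to 1000 UMIs, 0.821 at 1000 to 2000, 0.637 at 2000 to 5000, 0.706 at 5000 to 10000, 0.709 at 10000 to 20000, 0.683 at 20000 to 50000 and 0.804 at 50000 or more. The Npc1KO values in the same order were 1.38, 1.32, 1.10, 0.910, 1.22, 1.23 and 1.56. In CPM, the same counts went from 1604 to 12.5 in WT and from 1970 to 22.6 in Npc1KO. The barcodes of 2000 to 5000 UMIs had a median mitochondrial share of 55.8% in WT and 66.2% in Npc1KO, and those of 10000 to 20000 had 4.06% and 4.29%. Barcodes with 1000 genes or fewer averaged 0.866 in WT and 1.29 in Npc1KO, beside 0.665 and 1.15 in the kept ones. Within some classes the level was higher at greater depth, with kept barcodes divided into 4 equal groups by total UMIs. In Npc1KO the lowest and highest groups gave 0.775 and 1.16 in insulin, 0.874 and 1.43 in glucagon and 0.757 and 1.39 in PP barcodes. In WT PP barcodes they gave 0.427 and 0.784. The intervals of these pairs did not overlap. Those of WT insulin (0.526 and 0.586), WT glucagon (0.607 and 0.805), and somatostatin and endothelial barcodes of both libraries did.

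**Figure D3:**
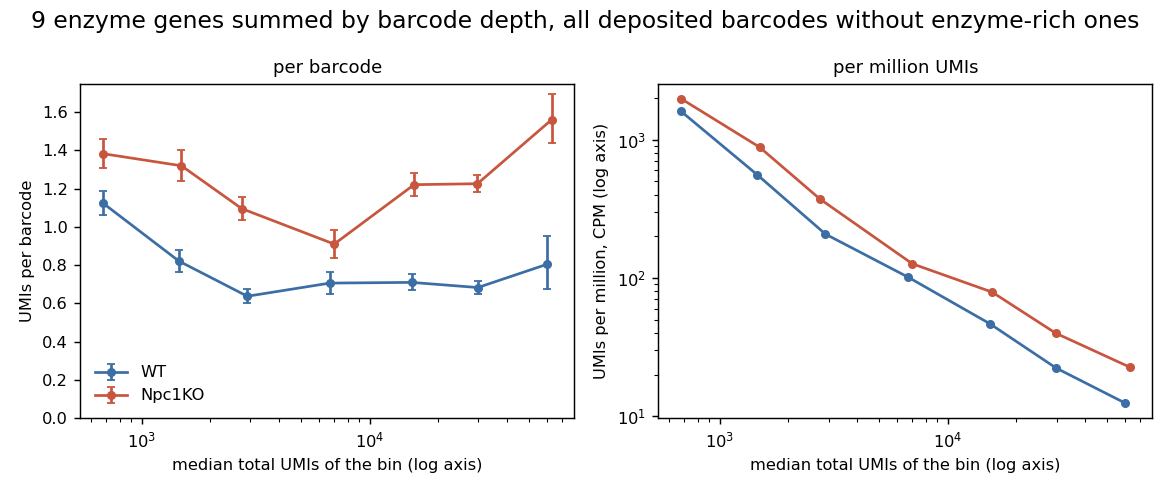
The 9 enzyme genes summed in bins of total UMIs per barcode (x axis, log, at each bin's median) for all deposited barcodes without the enzyme-rich ones; left, UMIs per barcode with exact Poisson 95% intervals, right, CPM (log axis). The level per barcode stays between 0.637 and 1.12 in WT and between 0.910 and 1.56 in Npc1KO, while the CPM falls from 1604 to 12.5 and from 1970 to 22.6.

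Insulin transcripts in stromal barcodes gave a comparison with transcripts of another cell type. Ins1 and Ins2 together were at 163 UMIs per endothelial, 169 per stellate and 163 per mesenchymal barcode in WT, and at 109, 110 and 111 in Npc1KO. Between the libraries insulin and the enzyme genes went in opposite directions: insulin in endothelial barcodes was at 0.672 times the WT level in Npc1KO (0.665 to 0.680), and the 9 enzyme genes there at 1.83 times (1.57 to 2.13).

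Cela1 behaved differently from the other 9. Its level was 5.08 UMIs per barcode in the WT somatostatin class (4.76 to 5.41) and 6.57 in the Npc1KO one (6.15 to 7.00), and 2.23 and 3.57 in the PP class. It was 0.223 and 0.280 in insulin, 0.133 and 0.236 in glucagon, 0.0520 and 0.0670 in endothelial, 0.0297 and 0.0391 in stellate and 0.0303 and 0.0571 in mesenchymal barcodes. The order of the classes from somatostatin through PP, insulin and glucagon to endothelial was the same in both libraries, the insulin and glucagon intervals overlapped in Npc1KO, and those of the 3 stromal classes overlapped in both. The somatostatin class exceeded the other 6 classes combined 13.7-fold in WT (12.6 to 14.9) and 11.0-fold in Npc1KO (10.1 to 11.8). Somatostatin over insulin was at least 2-fold for 7.97% of all genes in WT and 9.25% in Npc1KO.

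Not every somatostatin barcode carried Cela1. In WT 58 of 189 had no UMI of it, the median was 2 and the highest 58, and in Npc1KO 34 of 141 had none, with a median of 3 and a highest of 72. In the WT somatostatin class Cela1 was higher at greater depth, from 3.08 UMIs per barcode in the lowest of 4 equal groups of barcodes by total UMIs through 4.30 and 5.53 to 7.45 in the highest. In CPM these groups were close, at 338, 325, 358 and 377. The Npc1KO groups gave 3.42, 6.66, 6.46 and 9.83 UMIs per barcode and, less close to each other, 299, 449, 369 and 386 CPM. The 9 other genes in the same WT groups gave 0.354, 0.681, 0.553 and 0.511 UMIs per barcode and 38.8, 51.5, 35.8 and 25.9 CPM. In the Npc1KO groups these 9 genes gave 0.889, 1.09, 1.69 and 1.43 UMIs per barcode and 77.8, 73.3, 96.5 and 56.2 CPM.

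Cela1 was then set against the Sst share of each barcode. The bins of this share were chosen after the counts were seen. In WT, Cela1 was at 0.0630 UMIs per barcode where Sst was under 0.1% of UMIs, 0.405 at 0.1% to 1%, 5.57 at 1% to 5%, 5.02 at 5% to 10% and 5.31 at 10% or more. The Npc1KO values were 0.128, 0.571, 5.22, 7.68 and 7.34. The 9 other genes were at 0.669, 0.738, 0.587, 0.787 and 0.574 in the same WT bins. Barcodes with Sst at 1% or more were 9.39% of the WT and 9.74% of the Npc1KO barcodes, and they held 89.2% and 85.2% of the Cela1 UMIs but 8.75% and 10.5% of those of the 9 other genes.

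**Figure D4:**
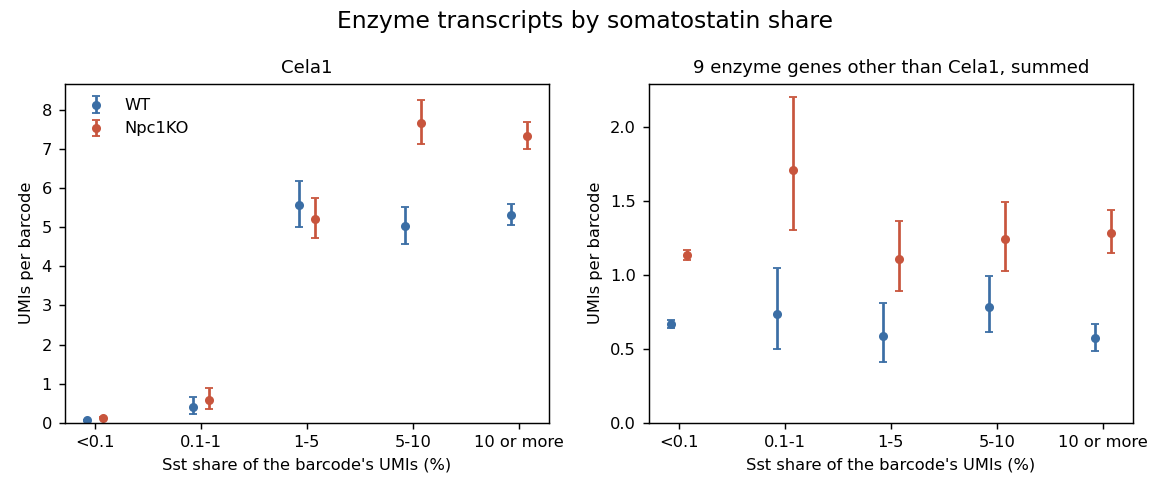
UMIs per barcode of Cela1 (left) and of the 9 other enzyme genes summed (right) against the Sst share of the barcode's UMIs, in kept barcodes without the enzyme-rich ones; bars are exact Poisson 95% intervals. Cela1 is at or below 0.571 under an Sst share of 1% and at or above 5.02 from 1% on in both libraries, whereas the sum shows no such step.

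The means divided in the same way inside the classes led by other hormones. PP barcodes with Sst under 1% had 0.210 UMIs of Cela1 in WT and 0.661 in Npc1KO, and those with 1% or more had 5.98 and 8.61. In Npc1KO a single PP barcode with Sst under 1% held 63 of the 185 Cela1 UMIs there. Insulin barcodes had 0.0579 and 0.104 below the limit, and the 52 WT and 58 Npc1KO insulin barcodes above it had 5.87 and 5.67. Glucagon barcodes had 0.0587 and 0.0759 below and 3.16 and 5.15 above it. The values above it rested on 25 WT and 27 Npc1KO glucagon barcodes. Of the latter 44.4% had a UMI of Cela1, with a median of 0 and a highest of 39. Insulin barcodes above the limit had a median depth of 39842.5 UMIs in WT and 37868.5 in Npc1KO, beside 30258 and 30023.5 below it. Glucagon barcodes had 28088 and 32980 beside 17040 and 18867.5, and PP barcodes the reverse, 14826 and 16165 beside 20332 and 21576.5. Barcodes led by a hormone other than Sst that also hold Sst can be doublets. The part of doublets was not tested barcode by barcode, and the removal of the highest doublet scores changed the somatostatin ratio over all kept barcodes from 12.3 to 16.9 in WT and from 9.33 to 9.96 in Npc1KO.

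The genes most like Cela1 were sought by Pearson correlation of log2 (CPM + 1) over 14 points, the 7 classes of 2 libraries, which share libraries and depth. Over all kept barcodes they included Hhex (r = 0.909), Tmed6 (0.889), Tusc3 (0.874) and Pabpc1l (0.872). Without the enzyme-rich barcodes they were Ptprz1 (0.972), Dpp6 (0.958), Gap43 (0.958), Neurog3 (0.952) and 1810010H24Rik (0.945), and the 2 lists had 0 genes in common. For the first list the Npc1KO endothelial class included an enzyme-rich barcode with 407 Cela1 UMIs, beside 30 in the rest of that class. Hhex was at 60.8 CPM in the endothelial class of WT and 66.0 in that of Npc1KO. What this barcode contributed to the order of the first list was not tested.

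Cpa1 was the other member with a class of its own. Mesenchymal barcodes had 0.682 UMIs of Cpa1 in WT (0.497 to 0.912, 45 UMIs in 66 barcodes) and 0.400 in Npc1KO (0.266 to 0.578, 28 UMIs in 70 barcodes). The other classes lay between 0.0186 and 0.0741 in WT and between 0.0385 and 0.0703 in Npc1KO. The mesenchymal class exceeded the others combined 28.6-fold in WT (19.7 to 41.1) and 7.39-fold in Npc1KO (4.79 to 11.0). The UMIs were spread over 23 WT and 21 Npc1KO barcodes, with at most 7 and 5 in any of them. This feature was picked out after the values were seen and rests on 2 small classes. The other carboxypeptidase, Cpb1, was at 0.0909 and 0.0857 in the same barcodes.

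Shares of barcodes with a UMI were compared after each barcode had been thinned to 5000 UMIs. Cela1 was then detected in 51.4% of WT somatostatin barcodes (43.9 to 58.9, exact Clopper-Pearson) and 56.1% in Npc1KO (47.5 to 64.5). In endothelial barcodes it was detected in 2.53% and 3.61%. The thinning left out 8 of 189 WT and 2 of 141 Npc1KO somatostatin barcodes, and 47 and 32 endothelial ones. Without thinning the shares were 69.3% and 75.9% in the somatostatin class and 4.75% and 6.70% in the endothelial class, at median depths of 14444 and 15814 against 7838.5 and 10285 UMIs. For the 9 genes summed, the unthinned share in WT was 44.1% in insulin, 45.9% in glucagon, 39.7% in somatostatin and 44.5% in PP barcodes. It was 43.9% in endothelial and 43.6% in stellate barcodes, and 69.7% (57.1 to 80.4) in mesenchymal ones. In Npc1KO it was 61.7% in insulin and 77.1% (65.6 to 86.3) in mesenchymal barcodes, with the other classes between 62.1% and 67.4%. Thinned to equal depth, the WT share was 10.5% in insulin, 16.4% in glucagon, 27.3% in endothelial and 51.6% in mesenchymal barcodes. Their median depths before thinning were 30553.5, 17305, 8775 and 10377 UMIs, so thinning removed the largest part from insulin barcodes. A transcript with the same count per barcode at every depth would by this alone be detected in fewer of the deeper barcodes.

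Between the libraries all 10 transcripts were higher in Npc1KO. Over all kept barcodes, the ratio of Npc1KO to WT in UMIs per barcode was 2 or more for 10 of 10 genes. It ran from 2.16 for Cela1 to 5.40 for Clps. Of all genes with at least 500 UMIs in each library 0.209% (20 of 9567, these 10 included) reached 2. Most members met this minimum in WT only through the enzyme-rich barcodes. The same barcodes held 84.9% (WT) and 92.8% (Npc1KO) of the UMIs of the genes other than Cela1. The share of 0.209% is therefore no background for the members outside those barcodes. Without the 7 enzyme-rich barcodes of each library 4 of 10 had a ratio of 2 or more. Of the 12792 genes with at least 100 UMIs in each library outside those barcodes 0.36% did. The 4 were Cela2a at 2.27 (1.94 to 2.65), Clps at 2.22 (1.83 to 2.69), Cela3b at 2.19 (1.84 to 2.61) and Reg1 at 2.07 (1.79 to 2.40). Prss2 was at 1.95, Cpa1 at 1.85, Cpb1 and Pnliprp1 at 1.51, Ctrb1 at 1.45 and Cela1 at 1.44 (1.37 to 1.51). The median over the 10 genes was 1.90, beside 1.16 over all genes. The members do not measure the ratio independently of each other, and with 1 library per genotype the difference compares these libraries and has no replicate check.

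**Figure D5:**
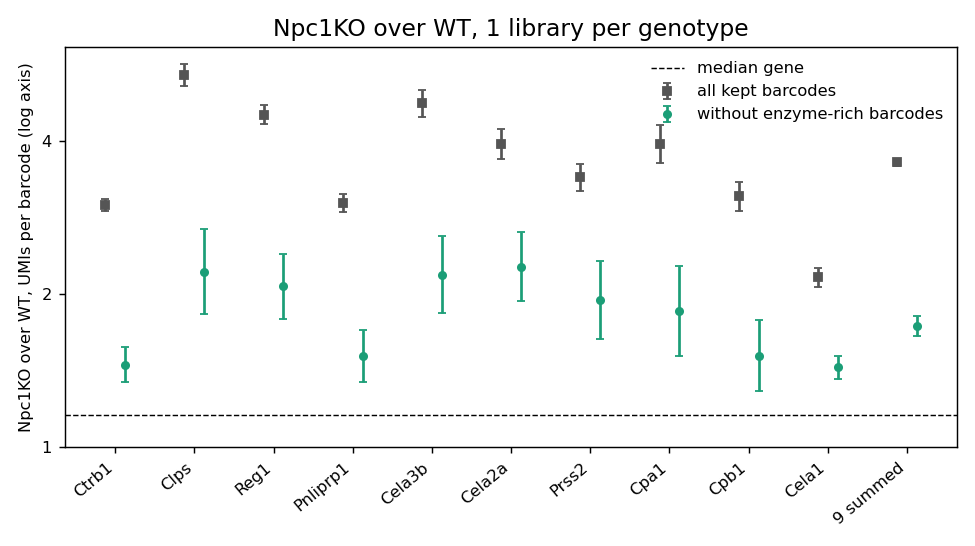
Ratio of Npc1KO to WT in UMIs per barcode (log axis) for each gene and for the 9 genes summed, over all kept barcodes (squares) and without the enzyme-rich ones (circles); bars are conditional binomial 95% intervals for counting error and the dashed line is the median gene at 1.16. All ratios lie above that line, and the sum moves from 3.64 to 1.73 when 7 barcodes per library are left out.

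The ratio for the 9 genes was above the median gene's library ratio of 1.16 in 6 of 7 classes. It was 1.82 in insulin, 1.56 in glucagon, 2.42 in somatostatin, 1.73 in PP, 1.83 in endothelial and 1.68 in stellate barcodes, and 0.924 (0.692 to 1.23) in mesenchymal barcodes. The last value includes Cpa1, whose ratio there was 0.587 (0.352 to 0.961). Without Cpa1 the other 8 genes were at 1.20 in mesenchymal barcodes (0.831 to 1.74), from 55 WT and 70 Npc1KO UMIs. This interval overlapped that of the 9 genes. For Cela1 in the somatostatin class the ratio was 1.29 (1.18 to 1.42).

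Of 28 other acinar secretory genes listed, 27 were in the matrices. In 17 of them more than 50% of the kept UMIs lay in the enzyme-rich barcodes of both libraries. Examples were Cel, carboxyl ester lipase, with 87.8% in WT and 90.5% in Npc1KO, Try4 with 72.5% and 88.0%, and Sycn, a zymogen granule protein, with 85.0% and 92.5%. Try4 was also counted outside them, at 0.0383 and 0.101 UMIs per barcode. The amylase gene Amy2a5 gave 3 and 16 UMIs in all kept barcodes. Reg3b gave 2 UMIs in WT and 204 in Npc1KO, 199 of them in the enzyme-rich barcodes, and Reg2 gave 0 and 43. Pla2g1b, a secreted phospholipase, lay mainly in PP and glucagon barcodes, at 0.358 and 0.168 UMIs per barcode in WT and 0.416 and 0.408 in Npc1KO. Gatm, an enzyme of creatine synthesis, was highest in insulin barcodes, at 1.41 and 2.15.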

How the data were processed

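Islets of WT and Npc1KO mice were measured by 10x Genomics single-cell RNA sequencing, 1 library each. For 8569 WT and 7646 Npc1KO barcodes the authors deposited UMI counts of every gene, not normalized. Their processing notes name mm10, Cell Ranger 3.1.0 and Seurat 4.0.3. The study's limits on genes, depth, mitochondrial and haemoglobin share had not been applied to the deposited counts. They were applied here, and no barcode was removed as a doublet in the main values. No deposited barcode other than the enzyme-rich ones had under 500 UMIs, so droplets below that depth were not seen. The sequencing kit version is not uniform in the sources.

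Counts were read with Python 3.11.15 (pandas 2.3.3, numpy 2.4.6 and scipy 1.17.1). Barcodes without a leading hormone took the stromal or immune marker list with the highest mean log2 (1 + UMIs per 10000), with at least 3 markers detected, and classes needed at least 50 barcodes. UMIs were summed per class and library and divided by barcodes, with UMIs per 1000000 UMIs (CPM) as the alternative. Levels are counts of 3′ molecules without a length correction. Sums have exact Poisson, shares Clopper-Pearson and ratios conditional binomial 95% intervals, which cover counting error alone. With 1 library per genotype no test was made. A count of 0 was taken to allow up to 3 counts. Scrublet scores came from scanpy 1.11.5 and the TMM factor from edgeR 4.0.16 (R 4.3.3). Ratios and evenness were checked on simulated Poisson counts, which lack the extra variance over barcodes seen in these libraries. The simulated even gene also had more UMIs per barcode than most members outside the enzyme-rich barcodes. The check therefore does not show how the measures behave at the members' own levels.

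The genes, classes and lists were chosen with earlier results of these data known. Named genes were the 10 members, the list of acinar genes, the 5 genes most like Cela1, the 10 evenest genes and the class markers. Alternatives were other barcode filters, a hormone limit of 20%, doublet removal, removal of the top 1% of barcodes, other scales, other thinning and a lower gene minimum. Leaving out the enzyme-rich barcodes, with a minimum of 100 UMIs per gene outside them, was added after the data were seen. Among the genes most like Cela1, 1 is not reported here.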

Additional observations from a re-analysis of the deposited data

How the results depend on the processing

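No paired analysis was possible because each genotype has 1 library and no replicate numbers. For the same reason no library could be left out. The precision is limited by counts: outside the enzyme-rich barcodes a member other than Cela1 rests on 154 to 1420 UMIs per library, and in mesenchymal barcodes on as few as 1. The ratios of Npc1KO to WT and of somatostatin to the other classes stayed above 1 under every alternative run. Of the main values and ratios under these alternatives, 8 lay within the interval of the main value and 7 highest-over-lowest values, which have no interval, within 1.5 times of it, and 41 moved, as follows.

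The 9 genes summed, at 4.40 UMIs per barcode in WT and 16.0 in Npc1KO, were 2.97 and 18.2 under a stricter filter, 5.28 and 15.4 under a looser one, 4.68 and 17.0 with doublets removed, 0.649 and 1.12 without the top 1% of barcodes and 0.665 and 1.15 without the enzyme-rich ones. Their highest over lowest class mean, at 9.32 and 28.3, was 1.33 in Npc1KO under the stricter filter, whose limit of over 2000 genes left out the enzyme-rich endothelial barcode with 13084 UMIs of the 9 genes and 1833 genes, 3.07 and 1.31 without the top 1%, 2.89 and 1.31 without the enzyme-rich barcodes, and 4.69 and 64.5 in CPM. The order of the libraries in this measure therefore turned: it was higher in Npc1KO over all kept barcodes but lower than in WT under the stricter filter (1.33 against 11.5), without the top 1% and without the enzyme-rich barcodes. The stricter filter also left 44 stellate barcodes in Npc1KO, too few for that class. Somatostatin over the other classes for Cela1, at 12.3 in WT and 9.33 in Npc1KO, was 10.1 in WT under the stricter filter, 7.51 in Npc1KO under the looser one, 32.5 and 14.3 with a hormone limit of 20%, 16.9 in WT with doublets removed, 11.2 in Npc1KO without the top 1%, 13.7 and 11.0 without the enzyme-rich barcodes, and 18.7 and 12.3 in CPM. The top 1% also takes out somatostatin barcodes with much Cela1, because it counts all 10 genes. The hormone limit of 20% left 44 WT and 37 Npc1KO somatostatin barcodes, fewer than the 50 needed for a class.

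Npc1KO over WT for the 9 genes summed, at 3.64, was 6.13 under the stricter filter, 2.92 under the looser one, 1.73 both without the top 1% and without the enzyme-rich barcodes, 3.35 in CPM and 3.13 with the TMM factor. The share of somatostatin barcodes with Cela1, at 51.4% and 56.1%, was 41.3% and 44.7% when thinned to 2500 UMIs and 69.3% and 75.9% unthinned, and that of insulin barcodes with any of the 9, at 10.5% and 16.5%, was 5.77% and 8.71% or 44.1% and 61.7%. With a minimum of 200 UMIs, 37 of 11618 genes were at least 2-fold higher in Npc1KO, against 20 of 9567. The cause of the other moves was not tested.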

Other observations

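The genes with the evenest level over the 7 classes among all 9567 tested, by the larger highest-over-lowest ratio of the 2 libraries over all kept barcodes, were Trak1, Mtfr1l, Ruvbl1, Tulp3, H3f3b, Timm44, Mrps25, Akr1b10, Tomm22 and Acads. Trak1, which links mitochondria to motor proteins, had ratios of 1.12 in WT and 1.18 in Npc1KO at 0.445 and 0.565 UMIs per barcode. H3f3b, a histone gene, was at 16.0 and 16.9 UMIs per barcode with ratios of 1.40 and 1.19. None of the 10 digestive enzyme genes was among them. Without the enzyme-rich barcodes the ranks of Cela2a, Pnliprp1, Reg1 and Ctrb1 were 179, 247, 451 and 1357 among 12792 genes, and those of the other members lay between 4295 and 10180.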
